A study of Homo sapiens with 12 samples.

Results

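Neuronal secretion genes and their repressor REST were followed in 3 cholangiocarcinoma cell lines after LKB1 knockdown. The set held 42 genes of the 18792 in the table. They were REST, its corepressor RCOR1 and 40 genes of granins, synaptic vesicles, the release machinery, neuronal cytoskeleton, RNA-binding proteins and other neuronal products. Their signal had to reach at least 1 in at least 2 libraries to be tested, and 38 did. STMN2, STMN4, ELAVL3 and ELAVL4 did not, with highest values in any library of 0.509, 0.789, 0.425 and 0. A gene that passes such a filter only through the line where it is high must differ between lines, so counts below keep the untested genes in view.

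CEND1, NKAIN1, VGF, SYT11 and CPLX1 were chosen by their change with LKB1 siRNA, since the study's own list of changed genes holds them. For these 5 the change with LKB1 siRNA is given as a description, without a test, and they are left out of its counts. The other 37, of which 33 were tested, were selected on their function, with earlier results of these data known.

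Each line was transfected with LKB1 siRNA or with a scrambled control siRNA, at 45 pmol per well, and RNA was taken after 48 h. The groups, with 2 libraries in each of the 6, were LKB1 siRNA and control siRNA HuH-28 cells, grown in MEM, and LKB1 siRNA and control siRNA RBE cells and SSP-25 cells, grown in RPMI1640. HuH-28, RBE and SSP-25 are established human lines labelled as intrahepatic cholangiocarcinoma, a cancer of the bile ducts inside the liver, and LKB1, encoded by STK11, is a tumour-suppressor kinase. No allele or other agent is named for any group. The study names the libraries of a group as the first and the second test. The sources used here do not say whether these were separate cultures, or whether libraries with the same number were made together, so p-values measure the spread between these libraries, which may be technical.

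REST is a zinc-finger repressor that binds a sequence called RE1 near neuronal genes and, with RCOR1 and histone-modifying enzymes, keeps them low outside the nervous system. Granins and prohormone convertases fill dense-core granules of endocrine and nerve cells, and SNARE proteins with synaptotagmins and complexins fuse those granules and synaptic vesicles with the cell membrane when calcium enters. In tumours of the biliary tract, granins and synaptophysin are used as stains for neuroendocrine differentiation.

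Signals are normalized reads per kilobase of transcript, so levels can be set side by side between genes. The library sums lay between 9909644 and 11726703, and the read depth is unknown. Of the 12 libraries, 7 listed 1057 genes at 0 and the other 5 between 2979 and 3403, so that values well under 1 in the first kind stand where the second kind shows 0. STK11 fell with LKB1 siRNA in every line, with log2 fold changes of -2.77 in SSP-25, -1.68 in RBE and -1.59 in HuH-28 (limma on log2(signal + 0.5), Benjamini-Hochberg adjusted p = 1.75e-07, 3.21e-06 and 1.14e-05). All fold changes below are on this scale, which understates the change of genes with low signals.

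The labelled cell type was set against marker genes. The bile duct keratin KRT7 was high in every line, at 2876 to 3020 in LKB1 siRNA and 2406 to 2467 in control siRNA HuH-28 cells, and at least 5759 in every library of RBE and SSP-25. The summed signal of 6 biliary markers was 10691 to 10906 in LKB1 siRNA and 7084 to 7401 in control siRNA SSP-25 cells, and it was lower with LKB1 siRNA in RBE, at 25946 to 26131 against 27321 to 28756. HuH-28 was low in the epithelial marker EPCAM, which reached at most 1.31. It also held the fibroblast genes COL1A1, DCN and LUM, while COL1A2 on the same list reached at most 3.24 there. The summed signal of 5 fibroblast markers was 21278 to 22271 with LKB1 siRNA and 18045 to 18477 with control siRNA. The higher sum came mainly from COL1A1, at 18628 and 16581 with LKB1 siRNA, against 13992 and 12720 with control siRNA. LUM went the other way, at 1642 and 2142 against 2174 and 2575, and the DCN groups overlapped. The fibroblast sum was also high in SSP-25, mainly from COL1A1, at 11095 to 11496 with LKB1 siRNA and 6605 to 7014 with control siRNA. In RBE it was 75.3 to 80.8 with LKB1 siRNA and 53.6 to 55.1 with control siRNA. Among 7 neuron and neuroendocrine markers, the defining factors NEUROD1 and INSM1 reached at most 1.27 in any library. TUBB3, a neuronal tubulin also common in cancer cells, made up most of the summed signal of that list. That sum was higher with LKB1 siRNA in every line, at 2416 to 2500 against 1476 to 1518 in HuH-28, 2556 to 2729 against 1437 to 1451 in RBE, and 2177 to 2207 against 1841 to 1843 in SSP-25. MAP2, a microtubule protein of neurons on the same list, went the other way in SSP-25, at 447 and 494 with LKB1 siRNA against 675 and 656 with control siRNA. The part of these biliary, fibroblast and neuronal shifts in the results below was not tested. Glial and hepatocyte marker sums were highest in RBE, at 93.2 to 117 and 1578 to 1587 with LKB1 siRNA, against 91.4 to 94.7 and 1142 to 1281 with control siRNA. Of the leukocyte markers, PTPRC and CD3E reached at most 6.59 in any library, and CD68, a lysosomal protein not limited to leukocytes, lay between 723 and 1967.

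Averaged over the lines, 16 of the 33 tested genes rose with LKB1 siRNA and 2 fell at adjusted p under 0.05, where 27.3% of all 16146 tested genes rose and 25.2% fell. In bulk libraries such as these, fewer cells expressing a gene and less RNA per cell cannot be told apart. The 16 that rose were CHGB, SCG2, SYP, SYT1, SYT5, SNAP25, VAMP2, UNC13A, BSN, NEFM, STMN3, GPRIN1, ELAVL2, CELSR3, DISP2 and SEZ6L2. The 2 that fell were REST and RCOR1. The median log2 fold change of the 31 neuronal genes was 0.32, and that of all tested genes 0.03. Leaving out 1 library gave between 14 and 17 rises. The fall of REST was lost, and 1 fall counted, without HuH-28 control siRNA replicate 1, RBE control siRNA replicate 2, RBE LKB1 siRNA replicate 2 or replicate 2 of either SSP-25 group.

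Within HuH-28, 5 of the 33 rose and 1 fell, where 14.3% of all tested genes rose and 15.5% fell, so the rises were near the share of all genes. The count was larger in RBE, with 13 rises and 1 fall against 22.1% and 18.6% of all genes. SSP-25 had 12 rises and 1 fall, against 21.1% of all genes in each direction. SNAP25, STMN3, DISP2 and SEZ6L2 rose in all 3 lines. SCG2, SYP, SYT1, BSN, ELAVL2 and CELSR3 rose in 2 lines, and 6 genes rose in 1. No gene rose in one line and fell in another. The share of all tested genes that rose in more than 1 line was not counted, so this recurrence only describes these genes. The single falls were REST in HuH-28 and RCOR1 in RBE and SSP-25. The fall in HuH-28 was lost without any 1 of 10 libraries, and that in SSP-25 without control siRNA replicate 2. RBE counted 2 falls without either of its LKB1 siRNA libraries and 3 without either SSP-25 control siRNA library.

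**Figure D1:**
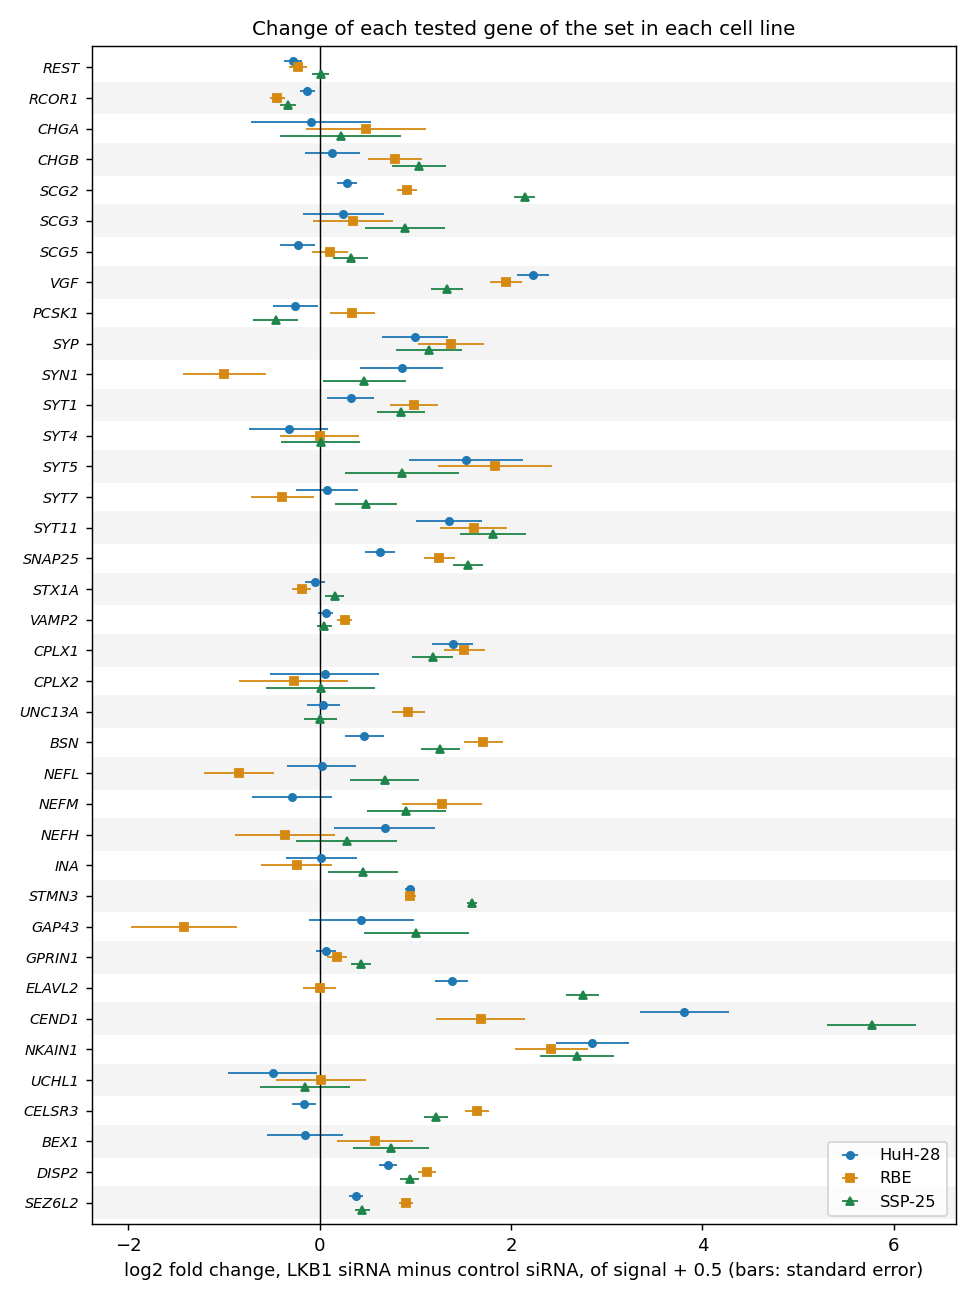
Log2 fold change of signal + 0.5, LKB1 siRNA minus control siRNA, with its standard error, for the 38 tested genes in HuH-28 (circles), RBE (squares) and SSP-25 (triangles). SNAP25, STMN3, DISP2 and SEZ6L2 lie right of 0 in all lines, RCOR1 lies left of 0 in all, and CEND1, chosen by this contrast like NKAIN1, VGF, SYT11 and CPLX1, lies furthest right, in SSP-25, where its position depends on the pseudocount.

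REST itself was expressed in every line. In HuH-28 its signal was 124.8 and 120.8 with LKB1 siRNA, against 155.6 and 143.1 with control siRNA. In RBE it was 166.6 and 159.0 with LKB1 siRNA, against 189.5 and 191.4 with control siRNA. SSP-25 gave 121.6 and 115.1 with LKB1 siRNA, against 107.5 and 128.6 with control siRNA. The LKB1 siRNA libraries were lower without overlap in HuH-28 and RBE, and the groups overlapped in SSP-25. The log2 fold change was -0.28 ± 0.09 (SE) in HuH-28, which passed (limma, adjusted p = 0.0427). It was -0.23 ± 0.09 in RBE and 0.01 ± 0.09 in SSP-25, which did not (adjusted p = 0.0743 and 0.973). Averaged, it was -0.17 ± 0.05 (adjusted p = 0.0228), and without 1 of the 5 libraries named above the adjusted p was 0.052 to 0.061. Without HuH-28 the average was -0.11 and without RBE -0.14, and neither passed the test. The changes of the lines did not pass a test of their difference (limma F test, adjusted p = 0.204).

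RCOR1, the scaffold that joins REST to histone demethylase and deacetylases, was higher than REST in each group. RBE had 337.9 and 337.1 with LKB1 siRNA, against 456.4 and 463.3 with control siRNA. SSP-25 had 251.4 and 248.9 with LKB1 siRNA, against 304.6 and 326.3 with control siRNA. HuH-28 had 212.0 and 186.4 with LKB1 siRNA, against 232.4 and 203.9 with control siRNA. The groups did not overlap in RBE and SSP-25 and did in HuH-28. RCOR1 fell in both, with log2 fold changes of -0.45 ± 0.08 (SE) for RBE (limma, adjusted p = 0.00142) and -0.33 ± 0.08 for SSP-25 (adjusted p = 0.00716), and its HuH-28 value was -0.13 ± 0.08 (adjusted p = 0.256). The call in SSP-25 was lost without control siRNA replicate 2 (-0.28, adjusted p = 0.058) and after libraries were scaled to the same sum (-0.27, adjusted p = 0.078). The average of -0.30 ± 0.05 (adjusted p = 0.000304) stayed between -0.34 and -0.27 with any 1 library left out.

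Other genes of the REST complex and of REST breakdown moved in both directions. Of 27 such genes, 11 rose and 10 fell on average, where 27.3% of all tested genes rose and 25.2% fell. The median log2 fold change was 0.07, against 0.03 over all genes. KDM1A, the histone demethylase that RCOR1 carries, rose by 0.66 ± 0.03 (SE) on average (limma, adjusted p = 4.32e-08), and in each line. BTRC, the ubiquitin ligase subunit that marks REST for breakdown, rose by 1.08 ± 0.05 (adjusted p = 1.11e-07), with values of 1.22 in RBE, 1.16 in SSP-25 and 0.86 in HuH-28. CTBP1, a corepressor that REST complexes can hold, fell by 0.64 ± 0.03 (adjusted p = 2.68e-07). The library preparation gives no protein levels, so only their messenger RNA is described.

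**Figure D2:**
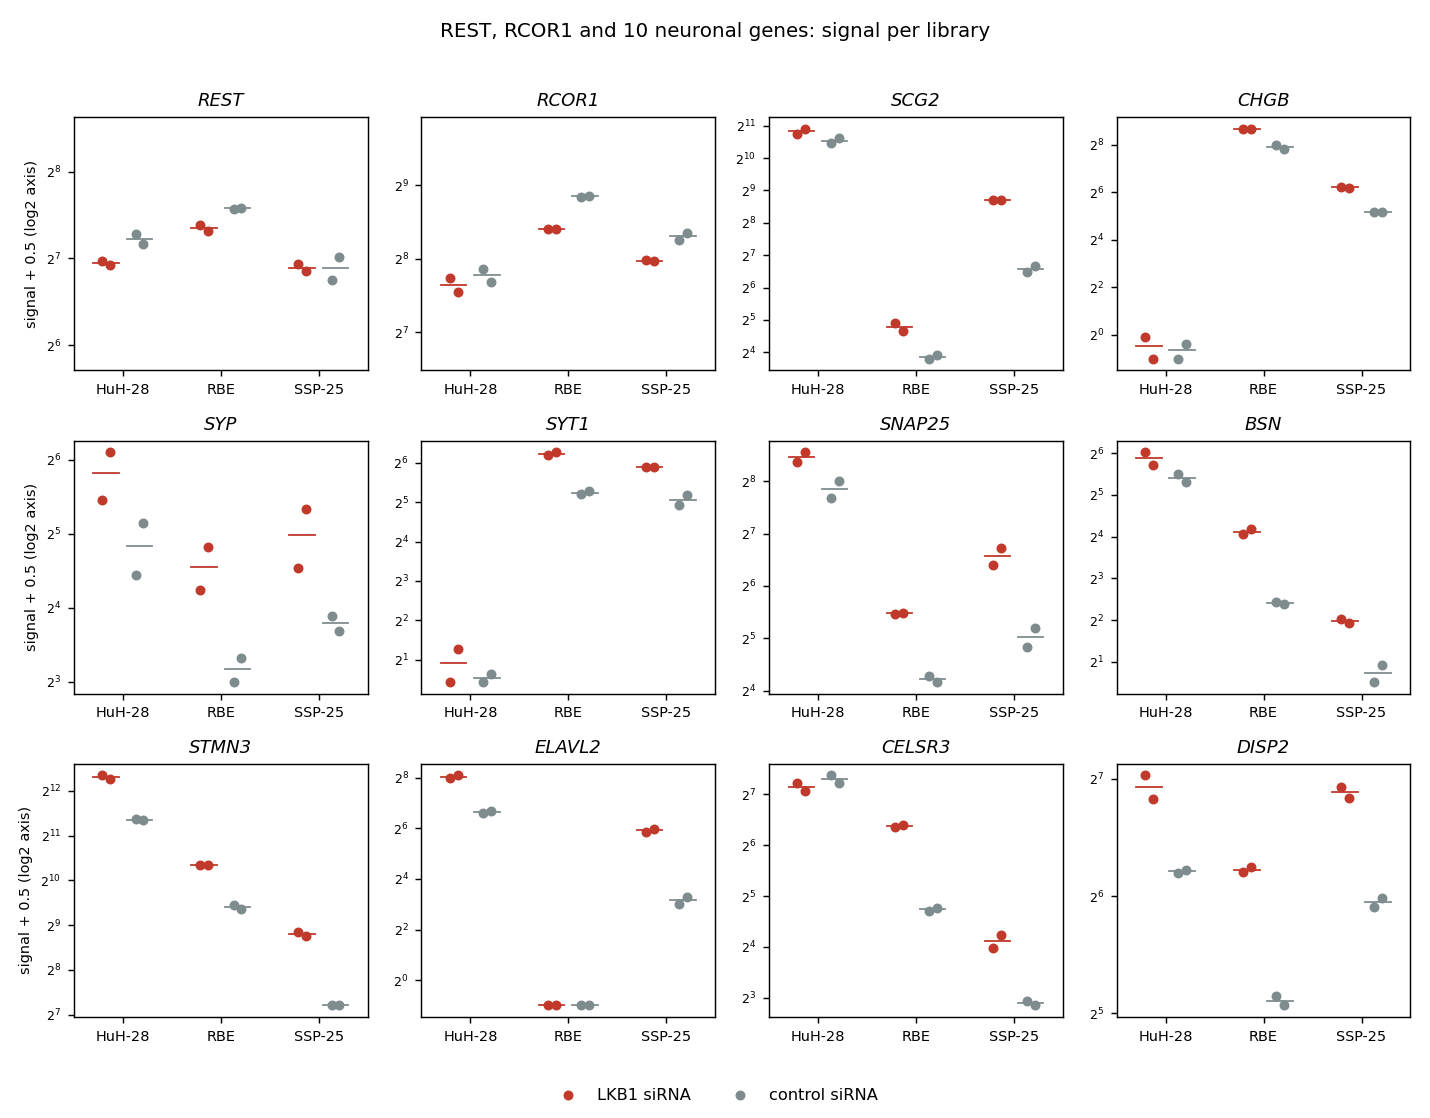
Signal + 0.5 on a log2 axis in each library (points) and the mean of each pair (lines) for REST, RCOR1 and 10 neuronal genes, with LKB1 siRNA (red) left of control siRNA (grey) in each line. REST and RCOR1 shift by less than STMN3 and DISP2, SCG2 and ELAVL2 shift most in SSP-25, and CELSR3 lies higher with LKB1 siRNA in RBE and SSP-25 and slightly lower in HuH-28.

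The granins and their processing enzymes formed the first group of target genes. Of 6 tested without VGF, SCG2 and CHGB rose on average and none fell, against 27.3% and 25.2% of all genes. SCG2, secretogranin II, from which the peptide secretoneurin is cut, had the larger change. In SSP-25 it had signals of 417.5 and 421.3 with LKB1 siRNA, against 88.6 and 101.0 with control siRNA. RBE had 29.4 and 24.6 with LKB1 siRNA, against 13.4 and 14.7 with control siRNA. In HuH-28, where SCG2 was highest, the values were 1709 and 1922 with LKB1 siRNA, against 1400 and 1580 with control siRNA. The LKB1 siRNA libraries lay above the control siRNA libraries in all 3 lines. The log2 fold change was 2.14 ± 0.11 (SE) for SSP-25 (limma, adjusted p = 4.47e-07) and 0.91 ± 0.11 for RBE (adjusted p = 0.000112), and 0.29 ± 0.11 for HuH-28, which did not pass (adjusted p = 0.0763). These changes differed between the lines (F test, adjusted p = 0.000163).

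CHGB, chromogranin B, an acidic protein of the granule core, was all but absent in HuH-28, where no library exceeded 0.438. SSP-25 had 74.7 and 71.5 with LKB1 siRNA, against 35.1 and 35.3 with control siRNA. RBE had 404.6 and 406.9 with LKB1 siRNA, against 249.3 and 222.1 with control siRNA. In both lines the LKB1 siRNA libraries were higher without overlap. The rise passed in SSP-25 (1.04 ± 0.28 (SE), limma, adjusted p = 0.0141), and the RBE value was 0.79 ± 0.28 (adjusted p = 0.0502). Without any 1 of the SSP-25 libraries the adjusted p in that line was 0.057 to 0.068, and with a pseudocount of 0.1 it was 0.29. The average of 0.65 ± 0.16 (adjusted p = 0.00707) did not pass without SSP-25 (0.46) or without RBE (0.59). Without HuH-28 it was 0.91 ± 0.05 (adjusted p = 2.2e-06). The fits with all lines share a spread that includes the HuH-28 libraries, at 0 to 0.438.

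The remaining granule genes did not pass in any line. CHGA, chromogranin A, the granin most used as a stain, stayed at or under 2.87 in every library. SCG3, which binds chromogranin A to the granule membrane, had 6.11 and 8.70 in LKB1 siRNA SSP-25 cells, against 4.11 and 3.34 in control siRNA SSP-25 cells, and at most 0.497 elsewhere. That difference of 0.89 ± 0.42 (SE) did not pass (limma, adjusted p = 0.121). SCG5, the 7B2 chaperone of prohormone convertase 2, was abundant in all lines, and its values of 0.32 in SSP-25, 0.11 in RBE and -0.23 in HuH-28 did not pass (adjusted p = 0.206, 0.701 and 0.403). PCSK1, prohormone convertase 1, was found mainly in HuH-28, at 41.3 and 43.0 with LKB1 siRNA, against 49.1 and 51.8 with control siRNA (adjusted p = 0.461). In a wider list of 21 tested granule genes, 5 rose and 4 fell on average, with a median of 0.25, near the 27.3% and 25.2% of all genes in their counts. BDNF, a growth factor carried in granules, rose by 1.41 ± 0.06 (adjusted p = 6.81e-08), and RAB27A, a GTPase of granule docking, by 0.75 ± 0.06 (adjusted p = 4.72e-06). PAM, the enzyme that amidates peptide hormones, fell by 0.50 ± 0.03 (adjusted p = 8.11e-07).

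VGF, a granin-like precursor of several neuropeptides, was one of the genes chosen by the contrast. It had 198.9 and 155.3 in LKB1 siRNA HuH-28 cells, against 42.3 and 32.6 in control siRNA HuH-28 cells. RBE had 305.0 and 310.0 with LKB1 siRNA, against 75.6 and 82.6 with control siRNA. SSP-25 had 7.19 and 7.61 with LKB1 siRNA, against 2.92 and 2.37 with control siRNA. VGF was thus higher in every LKB1 siRNA library than in the control siRNA libraries of its line, by 2.52 times for SSP-25, 3.87 for RBE and 4.68 for HuH-28 on the scale of signal + 0.5.

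Promoters were searched for the RE1 core, the letters CAGCACC, any 2 bases and GGACAG on either strand, because it is the sequence through which REST acts. RefSeq promoters on GRCh38.p14, from 250 bases before to 50 after the start, were matched for 30 of the 42 genes. SCG2, CHGB, SNAP25, SEZ6L2 and CPLX1 were among those not matched, and no sequence outside this window was searched. With at most 1 mismatch in the 13 fixed letters, SYN1 and VGF held it, 6.67% of the 30, against 0.238% of 27305 promoters of the same length. With at most 3 mismatches, 7 of the 30 held it, 23.3%, against 16.0%. The set was picked partly as genes that REST represses, so a higher share may follow from that choice alone. VGF was also chosen by its change with LKB1 siRNA. A search for the full cyclic AMP response element, TGACGTCA, was added after the values were seen. CHGA, PCSK1, SYN1 and VGF held it, 13.3% of the 30, against 1.98% of all promoters and 2.80% of those of tested genes. The letters were counted only, and binding was not measured. The windows of VGF (chr7:101165555-101165819, minus strand) and SYN1 (chrX:47619843-47620107, minus strand) are shown because they hold both elements, in capitals. They end 15 bases past the start. In VGF the response element comes first, centred 75 bases before the start, and the RE1 match, read on the other strand and with 1 mismatch, lies across the start.
VGF promoter: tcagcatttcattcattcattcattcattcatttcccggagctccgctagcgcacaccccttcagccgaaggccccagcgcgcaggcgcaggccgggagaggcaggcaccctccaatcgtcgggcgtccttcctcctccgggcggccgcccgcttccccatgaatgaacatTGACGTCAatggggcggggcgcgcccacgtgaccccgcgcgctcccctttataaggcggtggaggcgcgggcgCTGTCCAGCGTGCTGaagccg
SYN1 promoter: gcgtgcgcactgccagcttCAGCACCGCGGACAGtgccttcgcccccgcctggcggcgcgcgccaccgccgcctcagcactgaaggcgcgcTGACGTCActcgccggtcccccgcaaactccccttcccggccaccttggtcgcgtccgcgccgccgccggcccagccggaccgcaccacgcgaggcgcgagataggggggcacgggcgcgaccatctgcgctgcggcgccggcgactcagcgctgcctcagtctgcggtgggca

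SYN1, synapsin I, which ties vesicles to the cytoskeleton, holds the exact RE1 core, centred 224 bases before its start. It was low in every line. SSP-25 had 8.10 and 8.22 with LKB1 siRNA, against 4.35 and 7.59 with control siRNA. HuH-28 had 3.29 and 2.03 with LKB1 siRNA, against 1.09 and 1.34 with control siRNA, and RBE had 0.192 and 1.14 with LKB1 siRNA, against 1.94 and 1.35 with control siRNA. With LKB1 siRNA the signal was higher in HuH-28 and SSP-25 and lower in RBE, and none of the changes passed (limma, adjusted p = 0.429 in SSP-25, 0.174 in HuH-28 and 0.0956 in RBE). An unnamed processed transcript on the same strand covers 9.003% of its exon bases, and reads on those shared bases cannot be told from that transcript's.

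Among the vesicle proteins and calcium sensors, 3 of 6 tested without SYT11 rose on average and none fell, where 27.3% of all genes rose. SYP, synaptophysin, the abundant membrane protein of synaptic vesicles, had 18.4 and 27.7 in LKB1 siRNA RBE cells, against 7.49 and 9.50 in control siRNA RBE cells. SSP-25 had 22.7 and 39.7 with LKB1 siRNA, against 14.3 and 12.4 with control siRNA. HuH-28 had 43.5 and 68.2 with LKB1 siRNA, against 21.2 and 34.8 with control siRNA. SYP was higher in the LKB1 siRNA libraries of all 3 lines, though the libraries of a group lay well apart. The log2 fold changes of 1.14 ± 0.35 (SE) for SSP-25 (limma, adjusted p = 0.0233) and 1.37 ± 0.35 for RBE (adjusted p = 0.0103) passed, and that of 0.99 ± 0.35 in HuH-28 did not (adjusted p = 0.0564). The call in RBE was lost without control siRNA replicate 1 or LKB1 siRNA replicate 2 (adjusted p = 0.068 and 0.085), and that in SSP-25 without any 1 of 3 libraries (0.065 to 0.18). The average was 1.17 ± 0.20 (adjusted p = 0.000712).

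SYT1, the calcium sensor of fast release, was expressed in RBE and SSP-25. RBE had 72.8 and 77.1 with LKB1 siRNA, against 36.4 and 38.6 with control siRNA. SSP-25 had 59.4 and 59.1 with LKB1 siRNA, against 30.0 and 35.8 with control siRNA. In both lines the LKB1 siRNA libraries were higher without overlap, while HuH-28 stayed at or under 1.91 in every library. SYT1 rose in SSP-25 by 0.85 ± 0.25 (SE; limma, adjusted p = 0.0212) and in RBE by 0.99 ± 0.25 (adjusted p = 0.0102). The adjusted p was 0.056 and 0.059 in RBE without control siRNA replicate 1 or LKB1 siRNA replicate 2, and 0.082 to 0.12 in SSP-25 without any 1 of 3 libraries.

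The other synaptotagmins were low or passed in no more than 1 line. SYT5, a calcium-binding synaptotagmin, had 3.26 and 2.27 in LKB1 siRNA RBE cells, against 0 and 1.15 in control siRNA RBE cells, and 6.01 and 3.29 in LKB1 siRNA HuH-28 cells, against 1.67 and 0.852 in control siRNA HuH-28 cells. The rise passed in RBE (limma, 1.83 ± 0.60 (SE), adjusted p = 0.0336) and on average (1.41 ± 0.34, adjusted p = 0.00619), and the RBE call was lost without any 1 of 3 libraries (adjusted p = 0.076 to 0.25). SYT7, a slow calcium sensor, was found in HuH-28 at 30.7 and 30.3 with LKB1 siRNA, against 28.5 and 29.5 with control siRNA, and passed in no line. SYT4, which lacks a calcium-binding residue found in SYT1, reached at most 1.60.

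SYT11, a calcium-independent synaptotagmin, was chosen by the contrast. HuH-28 had 385.4 and 370.6 with LKB1 siRNA, against 143.2 and 153.5 with control siRNA. RBE had 37.9 and 34.2 with LKB1 siRNA, against 10.7 and 12.2 with control siRNA. SSP-25 had 2.55 and 2.14 with LKB1 siRNA, against 0.807 and 0.000556 with control siRNA. SYT11 was higher with LKB1 siRNA in every line, while its control mean was 0.404 in SSP-25 and 148 in HuH-28.

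The release machinery gave 4 rises on average among 6 tested genes and no fall, beside 27.3% rises over all genes. SNAP25, the membrane SNARE of regulated release, rose in all 3 lines. RBE had 43.9 and 44.0 with LKB1 siRNA, against 18.9 and 17.4 with control siRNA. SSP-25 had 84.2 and 105.2 with LKB1 siRNA, against 27.95 and 36.20 with control siRNA. HuH-28 had 331.9 and 377.3 with LKB1 siRNA, against 203.9 and 255.9 with control siRNA. No LKB1 siRNA group overlapped its control siRNA group. The log2 fold change was 1.55 ± 0.16 (SE) for SSP-25 (limma, adjusted p = 4.57e-05), 1.25 ± 0.16 for RBE (adjusted p = 0.000182) and 0.63 ± 0.16 for HuH-28 (adjusted p = 0.0149). The HuH-28 call was lost without control siRNA replicate 1 (0.47, adjusted p = 0.10) or LKB1 siRNA replicate 2 (0.54, adjusted p = 0.08). The changes differed between lines (F test, adjusted p = 0.0324), but not without any 1 of 8 libraries (0.05 to 0.092).

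BSN, bassoon, a scaffold of the active zone where vesicles are released, had 16.2 and 17.5 in LKB1 siRNA RBE cells, against 4.93 and 4.70 in control siRNA RBE cells. SSP-25 had 3.58 and 3.30 with LKB1 siRNA, against 0.931 and 1.39 with control siRNA. HuH-28 had 64.6 and 51.7 with LKB1 siRNA, against 44.4 and 39.2 with control siRNA. BSN was higher with LKB1 siRNA without overlap in each line, and the rise passed in RBE (limma, 1.71 ± 0.21 (SE), adjusted p = 0.000122) and SSP-25 (1.26 ± 0.21, adjusted p = 0.000845). The HuH-28 value was 0.46 ± 0.21 (adjusted p = 0.123). A difference between the lines passed (F test, adjusted p = 0.0269), but not without any 1 of 6 libraries (0.055 to 0.078).

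UNC13A, which primes vesicles for fusion, was high in RBE alone among the control siRNA libraries. RBE had 472.8 and 499.8 with LKB1 siRNA, against 261.07 and 250.04 with control siRNA, and no library of HuH-28 or SSP-25 exceeded 4.745. It rose in RBE by 0.93 ± 0.17 (SE) (limma, adjusted p = 0.00183), with values of 0.04 in HuH-28 and 0.00 in SSP-25. The average of 0.32 rested on RBE, since it was 0.02 without that line. The test of a difference between lines gave an adjusted p of 0.0269, and 0.081 to 0.11 without any 1 of the RBE libraries.

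The SNARE partners of SNAP25 changed little. VAMP2, the vesicle SNARE, had 368.5 and 337.4 in LKB1 siRNA RBE cells, against 290.1 and 297.8 in control siRNA RBE cells, and rose there by 0.26 ± 0.08 (SE) on the log2 scale (limma, adjusted p = 0.0219). Its average of 0.12 ± 0.04 (adjusted p = 0.0415) was lost without any 1 of 8 libraries (0.063 to 0.11), and the RBE call without any 1 of 3 (0.065 to 0.15). Exons of another annotated gene cover 13.2% of its exon bases on the same strand. STX1A, syntaxin 1A, the other membrane SNARE, was highest in RBE, at 548.6 and 591.1 with LKB1 siRNA, against 630.1 and 669.6 with control siRNA. Its log2 values of -0.19 in RBE, 0.16 in SSP-25 and -0.05 in HuH-28 did not pass (adjusted p = 0.170, 0.255 and 0.767). CPLX2 stayed under 2 in every library.

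CPLX1, complexin 1, which clamps and then promotes SNARE fusion, was chosen by the contrast. RBE had 122.0 and 121.1 with LKB1 siRNA, against 38.6 and 46.2 with control siRNA. HuH-28 had 27.8 and 29.9 with LKB1 siRNA, against 9.545 and 12.03 with control siRNA. SSP-25 had 2.32 and 2.15 with LKB1 siRNA, against 0.506 and 0.942 with control siRNA. CPLX1 was higher with LKB1 siRNA in each line, by 2.86 times in RBE, 2.61 in HuH-28 and 2.27 in SSP-25 on the scale of signal + 0.5.

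**Figure D3:**
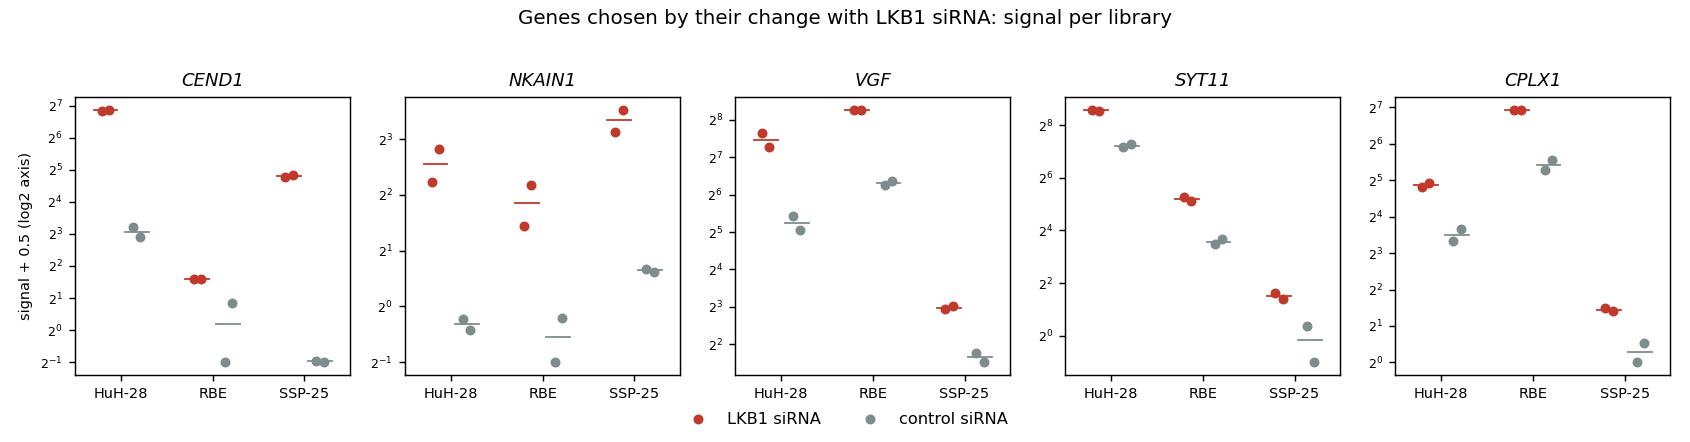
Signal + 0.5 on a log2 axis in each library (points) and the mean of each pair (lines) for the 5 genes chosen by their change with LKB1 siRNA, with LKB1 siRNA (red) left of control siRNA (grey). Every LKB1 siRNA library lies above the control siRNA libraries of its line, and the control siRNA values of CEND1, NKAIN1 and SYT11 come close to 0 in at least 1 line.

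Of 36 other tested genes of vesicles and active zones, 14 rose, 4 fell and 18 did not pass on average, beside 27.3% rises and 25.2% falls over all genes. Their median log2 fold change was 0.39. SYNGR3, synaptogyrin 3, a vesicle membrane protein, was higher by 2.25 ± 0.16 (SE). It is on the study's own list of changed genes, so no test is given for it. DNM1, the dynamin of vesicle retrieval, rose by 0.70 ± 0.07 (limma, adjusted p = 1.08e-05). The broadly expressed exocytosis genes had 5 rises and 10 falls among 27 tested, with a median of -0.09. SNAP23, the SNAP25 relative of most tissues, was lower by 1.30 ± 0.06, and RAB8A, a GTPase of traffic to the cell surface, by 1.45 ± 0.04. Both are on the study's list as well and are described without a test. The counts of both gene groups include such genes. STX3, a syntaxin of apical membranes, fell by 0.75 ± 0.04 (adjusted p = 1.30e-07). SNAP25 and SNAP23 thus moved in opposite directions in each of the 3 lines. No test compared the lists.

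Neurofilaments and stathmins build and regulate the axonal cytoskeleton. Of 7 tested genes of this group, STMN3, NEFM and GPRIN1 rose on average and none fell, against 27.3% and 25.2% of all genes. STMN3, a stathmin that destabilizes microtubules, was among the most abundant genes of the set. HuH-28 had 5191 and 4901 with LKB1 siRNA, against 2653 and 2587 with control siRNA. RBE had 1303 and 1301 with LKB1 siRNA, against 698.4 and 652.3 with control siRNA. SSP-25 had 458.7 and 431.4 with LKB1 siRNA, against 147.3 and 147.5 with control siRNA. The groups were far apart in all lines. STMN3 rose by 1.59 ± 0.05 (SE) for SSP-25 (limma, adjusted p = 5.58e-08), by 0.95 ± 0.05 for RBE (adjusted p = 9.09e-07) and by 0.94 ± 0.05 for HuH-28 (adjusted p = 2.58e-06). The rise differed between lines (F test, adjusted p = 0.000455).

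NEFM, the medium neurofilament, had 3.29 and 2.06 in LKB1 siRNA RBE cells, against 1.25 and 0.434 in control siRNA RBE cells, and passed there (limma, 1.28 ± 0.42 (SE), adjusted p = 0.033). In SSP-25 it had 4.32 and 7.18 with LKB1 siRNA, against 3.38 and 2.22 with control siRNA, which did not pass (adjusted p = 0.111). Its average (0.63, adjusted p = 0.0496) was lost without any 1 of 8 libraries (0.051 to 0.13), and its RBE call without control siRNA replicate 2 or LKB1 siRNA replicate 1 (0.22 and 0.18). An antisense transcript covers 38.9% of its exon bases, and the counting is not stated to use strand. GPRIN1, a G-protein partner in neurite growth, rose in SSP-25, at 81.5 and 75.5 with LKB1 siRNA, against 56.9 and 58.9 with control siRNA (0.43 ± 0.10, adjusted p = 0.00765). That call was lost without LKB1 siRNA replicate 1 (adjusted p = 0.057), and the average did not pass without SSP-25 (0.12, adjusted p = 0.24).

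INA, the filament protein internexin, was an SSP-25 gene. It had 1216 and 1185 in LKB1 siRNA SSP-25 cells, against 860.4 and 896.7 in control siRNA SSP-25 cells, and at most 0.658 in any other library. Its difference in SSP-25 did not pass (limma, 0.45 ± 0.37 (SE), adjusted p = 0.367), though the groups did not overlap there. That standard error pools all lines, including the INA values at or near 0 in RBE and HuH-28. NEFL, the light neurofilament, was found in HuH-28, at 28.6 and 25.2 with LKB1 siRNA, against 26.2 and 26.8 with control siRNA, and passed in no line. NEFH reached 1.35 at most, and GAP43, a growth-cone protein, 4.90, and neither passed. Of 31 further cytoskeletal and axonal genes, 14 rose and 6 fell on average (median 0.21), against 27.3% and 25.2% over all genes. BASP1, a GAP43-like membrane protein, rose by 1.17 ± 0.04 (adjusted p = 7.88e-09) and TUBB3 by 0.72 ± 0.03 (adjusted p = 2.52e-08). DPYSL3, a collapsin response mediator of axon guidance, fell by 1.2 ± 0.02 (adjusted p = 4.58e-10).

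ELAVL2, also called HuB, belongs to the Hu proteins that bind AU-rich RNA in neurons, and among the genes not chosen by the contrast it had the largest change within a single line. SSP-25 had 56.6 and 63.0 with LKB1 siRNA, against 7.63 and 9.34 with control siRNA. HuH-28 had 251.6 and 271.9 with LKB1 siRNA, against 97.9 and 102.9 with control siRNA. RBE was listed at or near 0 in every library. The groups did not overlap in the lines that express it. ELAVL2 rose by 2.75 ± 0.17 (SE) in SSP-25 (limma, adjusted p = 1.79e-06) and by 1.38 ± 0.17 in HuH-28 (adjusted p = 0.000306). The difference between lines passed (F test, adjusted p = 0.000253), and in RBE the gene was listed at or near 0 in both groups. Of 18 other neuronal RNA-binding and splicing genes tested, 7 rose and 4 fell on average (median 0.25), against 27.3% and 25.2% over all genes. QKI, a STAR-domain RNA-binding protein, rose by 0.99 ± 0.04 (adjusted p = 5.50e-08). PTBP3, a relative of the splicing repressor PTBP1, was higher by 1.67 ± 0.03 and NOVA2, a neuronal splicing factor, by 2.23 ± 0.26. Both are on the study's own list of changed genes, so no test is given for them, though the counts include them.

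The last group held other neuronal genes. CEND1, which promotes exit of neuronal precursors from the cell cycle, was chosen by the contrast. HuH-28 had 114.1 and 117.3 with LKB1 siRNA, against 8.69 and 7.01 with control siRNA. SSP-25 had 26.6 and 27.8 with LKB1 siRNA, against 0.0135 and 0.00173 with control siRNA. RBE had 2.53 and 2.54 with LKB1 siRNA, against 0 and 1.29 with control siRNA. CEND1 was thus well expressed in LKB1 siRNA SSP-25 cells and listed near 0 in control siRNA SSP-25 cells. The fold change in that line depends on the pseudocount and is not read as a size. In HuH-28 the signal + 0.5 was 14.0 times that of control siRNA cells.

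NKAIN1, a membrane protein that binds the sodium pump, was chosen in the same way. SSP-25 had 8.24 and 11.1 with LKB1 siRNA, against 1.09 and 1.03 with control siRNA. HuH-28 had 4.19 and 6.60 with LKB1 siRNA, against 0.352 and 0.249 with control siRNA. RBE had 2.23 and 4.03 with LKB1 siRNA, against 0 and 0.367 with control siRNA. NKAIN1 was low in all control siRNA libraries and higher in each LKB1 siRNA library.

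DISP2, a dispatched-family membrane protein, rose in every line. HuH-28 had 130.2 and 112.9 with LKB1 siRNA, against 73.0 and 74.2 with control siRNA. RBE had 73.1 and 75.5 with LKB1 siRNA, against 34.9 and 33.0 with control siRNA. SSP-25 had 121.3 and 113.9 with LKB1 siRNA, against 59.6 and 62.6 with control siRNA. The groups did not overlap, and the log2 fold changes were 0.72 ± 0.10 (SE) for HuH-28 (limma, adjusted p = 0.00045), 1.12 ± 0.10 for RBE (adjusted p = 1.33e-05) and 0.94 ± 0.10 for SSP-25 (adjusted p = 4.09e-05). Their difference did not pass (F test, adjusted p = 0.108).

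SEZ6L2, a neuronal membrane protein with complement-like domains, also rose in every line. RBE had 427.7 and 440.8 with LKB1 siRNA, against 222.5 and 242.7 with control siRNA. HuH-28 had 1525 and 1340 with LKB1 siRNA, against 1140 and 1061 with control siRNA. SSP-25 had 320.3 and 297.8 with LKB1 siRNA, against 225.4 and 227.7 with control siRNA. The LKB1 siRNA libraries were the higher ones in each line. The rise was 0.90 ± 0.07 (SE) for RBE (limma, adjusted p = 1.05e-05), 0.38 ± 0.07 for HuH-28 (adjusted p = 0.004) and 0.45 ± 0.07 for SSP-25 (adjusted p = 0.000946), and the lines differed (F test, adjusted p = 0.00985).

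CELSR3, an atypical cadherin of axon guidance, changed in RBE and SSP-25. RBE had 81.8 and 83.7 with LKB1 siRNA, against 25.8 and 26.5 with control siRNA. SSP-25 had 15.3 and 18.3 with LKB1 siRNA, against 7.18 and 6.71 with control siRNA. HuH-28 had 147.9 and 132.5 with LKB1 siRNA, against 164.8 and 149.4 with control siRNA. The LKB1 siRNA libraries were higher in RBE and SSP-25 and lower, by a narrow margin, in HuH-28. CELSR3 rose in SSP-25 by 1.21 ± 0.12 (SE; limma, adjusted p = 4.34e-05) and in RBE by 1.64 ± 0.12 (adjusted p = 6.34e-06). The HuH-28 value of -0.16 ± 0.12 did not pass (adjusted p = 0.374), and the lines differed (F test, adjusted p = 0.000319).

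The changes of 8 of the 33 tested genes differed between the lines, where a larger share, 28.2%, of all tested genes did. They were SCG2, SNAP25, UNC13A, BSN, STMN3, ELAVL2, CELSR3 and SEZ6L2. Without either RBE control siRNA library 5 passed. UCHL1, a ubiquitin hydrolase abundant in neurons, and BEX1, a small adaptor of neurotrophin receptor signalling, passed in no line. SSP-25 had UCHL1 signals of 23391 and 22269 with LKB1 siRNA, against 25106 and 25688 with control siRNA (limma, adjusted p = 0.839). BEX1 was 7519 and 7634 in LKB1 siRNA SSP-25 cells, against 4672 and 4385 in control siRNA SSP-25 cells, without overlap but short of the threshold (0.74 ± 0.40 (SE), adjusted p = 0.166). The UCHL1 groups in SSP-25 did not overlap either. The standard errors of both genes pool all lines, including RBE, where neither exceeded 4.60 in any library. BEX1 shares sequence with its neighbour BEX2, so short reads of one may count for the other.

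The lines differed in these genes before any knockdown. Of the 42 genes, 38 were tested here. In the control siRNA libraries, 28 were called between SSP-25 and HuH-28 at adjusted p under 0.05 and a log2 difference above 1, against 38.0% of all tested genes. Of these, 7 were higher in SSP-25 and 21 lower. Between RBE and HuH-28, 27 were called, 8 higher in RBE and 19 lower, against 41.9% of all genes. Between SSP-25 and RBE, 25 were called, 12 higher in SSP-25 and 13 lower, against 37.4%. HuH-28 had the highest control mean for 21 of the 38 tested genes, RBE for 9 and SSP-25 for 8. A mean of at least 100 was reached by 13 genes in HuH-28 and by 10 in each of the others. Shares over all tested genes were not counted for the highest line, this level or each direction apart. Those counts therefore describe these genes only and do not set them apart from other genes. The lines also differ in their medium, and origin and medium cannot be told apart for HuH-28.

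Each line had its own leading genes. BEX1 averaged 15663 ± 3492 (SD, n = 2) in control siRNA HuH-28 cells, with SCG5 at 3820 ± 824 and STMN3 at 2620 ± 46.5. UCHL1 led in SSP-25 with 25397 ± 412, ahead of BEX1 at 4528 ± 203, SCG5 at 963 ± 166 and INA at 879 ± 25.7. RBE had no gene of that size, and STMN3 (675 ± 32.5), STX1A (650 ± 27.97) and RCOR1 (460 ± 4.88) came first. Levels of STMN3 and STX1A in RBE lay within their spread of each other.

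Several genes were high in one line and low or near 0 in another. UCHL1 was 25397 in SSP-25 and 1.36 in RBE, a log2 difference of 13.8 ± 0.47 (SE, limma, adjusted p = 2.25e-09 for SSP-25 minus RBE). BEX1 was 2.39 in RBE and 15663 in HuH-28, a log2 difference of -12.5 ± 0.40 (adjusted p = 8.96e-10 for RBE minus HuH-28). INA was 879 in SSP-25 and listed near 0 in HuH-28. RBE held CHGB at 236 ± 19.2 and UNC13A at 256 ± 7.80, while HuH-28 held them at 0.14 and 4.39. SCG2 was 14.1 in RBE and 1490 in HuH-28 (-6.67 ± 0.11, adjusted p = 9.37e-12), and ELAVL2 was near 0 in RBE and 100 in HuH-28 (-7.65 ± 0.17, adjusted p = 7.96e-11). These 7 genes were named for their differences after the values were seen.

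REST also differed between the lines. Its control mean was 190 ± 1.38 in RBE, 149 ± 8.87 in HuH-28 and 118 ± 14.9 in SSP-25 (SD, n = 2 each). The differences passed between SSP-25 and RBE (limma, -0.69 ± 0.09 (SE), adjusted p = 5.64e-05), between RBE and HuH-28 (0.35 ± 0.09, adjusted p = 0.00506) and between SSP-25 and HuH-28 (-0.34 ± 0.09, adjusted p = 0.00614), all below a log2 difference of 1. RCOR1 was 460 ± 4.88 in RBE, 315 ± 15.3 in SSP-25 and 218 ± 20.2 in HuH-28. Its log2 difference of 1.08 ± 0.08 between RBE and HuH-28 passed (adjusted p = 5.21e-07). With 3 lines, no relation of these levels to those of the neuronal genes was tested.

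**Figure D4:**
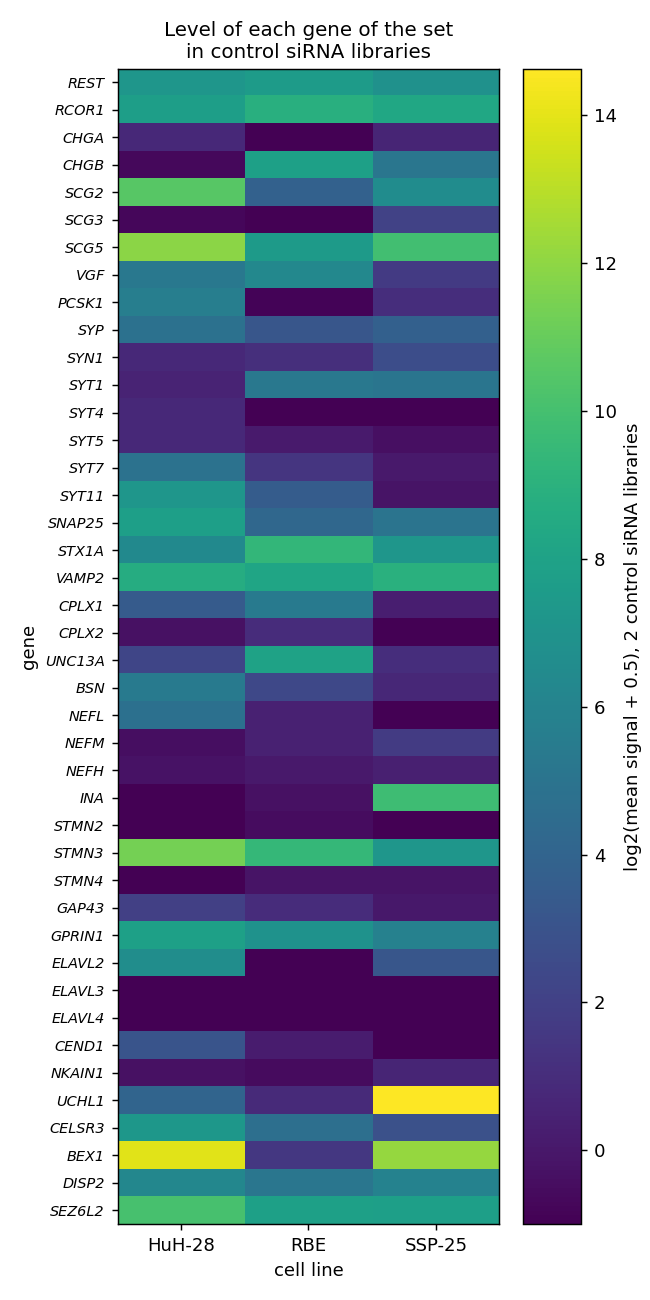
Heat map of log2(mean signal + 0.5) of the 2 control siRNA libraries for all 42 genes (rows) in HuH-28, RBE and SSP-25 (columns). UCHL1 and INA are brightest in SSP-25, BEX1, SCG5 and SCG2 in HuH-28, and CHGB and UNC13A in RBE. BEX1 and SCG5 are also bright in SSP-25, and STMN2, ELAVL3 and ELAVL4 are dark throughout.

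The neuronal and neuroendocrine transcription factors were mostly low. Of 24 on the list, 17 were tested, and 4 rose and 2 fell on average, with a median of 0.13, against 27.3% and 25.2% over all genes. EBF2 and EBF1, early B-cell factors with roles in neuronal differentiation, rose by 0.85 ± 0.15 (SE) (limma, adjusted p = 0.000865) and 0.86 ± 0.17 (adjusted p = 0.00175). EBF2 passed only in SSP-25, at 2.05 (adjusted p = 0.000169), with 0.50 in RBE and 0.01 in HuH-28 (0.16 and 0.994), and EBF1 passed in HuH-28 (1.08, adjusted p = 0.02) and RBE (0.89, 0.0353). POU3F2, the neural factor BRN2, rose by 0.80 ± 0.20 (adjusted p = 0.00748), and passed within SSP-25 (1.27, adjusted p = 0.0153).

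Finally, 3′ UTRs were searched for the 7-base word GCAGTAC, which an earlier analysis of the same table had linked to higher fold changes, so it gives no independent support. The word lies in the longest annotated 3′ UTR of REST, BSN, NEFM, ELAVL2 and NKAIN1, 5 of 38 tested genes (13.2%), against 4.93% of 14926 tested genes with a searched UTR. Genes with the word had a median average log2 fold change of 0.27, and those without it 0.02. BSN, NEFM and ELAVL2 rose on average, NKAIN1 was chosen for its rise, and REST fell. GAAGGAA, a word the same analysis had linked to lower fold changes, was in 18.4% of the 38 and 20.7% of all. The UTRs of the 38 had a median length of 1589 bases against 1213 for all, and longer ones hold any word more readily. Sites are shown with 10 bases on each side and the word in capitals, to compare their surroundings. In the 3′ UTR they start at base 1749 of 3692 in REST (chromosome 4), 2424 of 4060 in BSN (chromosome 3), 602 of 2453 in ELAVL2 (chromosome 9) and 619 of 1958 in NKAIN1 (chromosome 1).
REST: ttcagatttgGCAGTACaacatgaaag
BSN: agtgcggcagGCAGTACctgcctgacc
ELAVL2: ttttcgtaaaGCAGTACcttgccaaag
NKAIN1: ttctcattttGCAGTACattaaaactg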

How the data were processed

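RNA of the siRNA-treated cells was made into 12 libraries with the TruSeq RNA kit V2, for which no strand setting is stated, and read as 40-base single reads on a HiSeq 2500. The authors deposited 1 table of signal, normalized reads per kilobase of RefSeq transcript, with 18815 rows. The study's methods name NextGENe and an NCBI build 36 reference, while hg19, GRCh37, edgeR and TopHat 1.2.0 are in the submitters' processing notes. The sources used here do not give which of them made it, and the values are not counts, so no count test was run and no coordinates of the table were used.

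From these values, 23 repeated rows were left out, the 16146 genes reaching a signal of 1 in 2 or more libraries were kept, and log2(signal + 0.5) was fitted with limma 3.58.1 in R 4.3.3, taking the 6 group means, an intensity-dependent variance trend and Benjamini-Hochberg adjustment over these genes. LKB1 siRNA was set against control siRNA within each line and on average, with an F test of their difference, and the lines were set against each other in control siRNA libraries. Each gene had a spread shared by all 6 groups, so libraries near 0 in one line weigh on its tests in the others. An exact test of 2 libraries against 2 cannot reach 0.05. The fit was checked on simulated data. The members and gene lists were chosen with earlier results of these data known. Genes were named by rule: REST, RCOR1, the 5 chosen genes, every gene passing on average or in 2 lines or differing between lines, the highest genes of each line and up to 3 per list with the smallest p. Alternatives were pseudocounts of 0.1, 1 and 10, other filters, quantile normalization, equal sums, no trend, a replicate block, and each library or line left out. Promoters are RefSeq (GRCh38.p14), and 3′ UTRs and exon overlaps are from GENCODE. A few marker and list genes are not reported here.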

Additional observations from a re-analysis of the deposited data

Results flagged for a closer look

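The change with LKB1 siRNA differed between the cell lines for 8 of the 33 tested genes, by a limma F test adjusted over all genes. Among all tested genes a larger share, 28.2%, did, so the count does not set these genes apart. The adjusted p was 0.00016 for SCG2, whose log2 fold change was 2.14 in SSP-25, 0.91 in RBE and 0.29 in HuH-28. It was 0.00025 for ELAVL2, which rose in SSP-25 and HuH-28 and is listed at or near 0 in RBE. CELSR3 (0.00032) rose in RBE and SSP-25 and had a value of -0.16 in HuH-28. STMN3 (0.00046) rose most in SSP-25, and SEZ6L2 (0.0098) most in RBE. BSN (0.027) and UNC13A (0.027) rose most in RBE, and SNAP25 (0.032) in SSP-25. The last 3 were lost on leaving out single libraries, as given with each gene.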

How the results depend on the processing

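None of the 51 called values of the tested genes, on average or within a line, changed direction under any alternative. The median over all genes was -0.01 after quantile normalization, with 4000 rises and 4473 falls, against 4403 and 4061. The replicate number was not taken to pair the libraries, since nothing states that it marks a shared culture or day, and deviations of same-numbered libraries correlated at -0.00687 in SSP-25, 0.0216 in RBE and 0.217 in HuH-28. Within HuH-28 and RBE, though not SSP-25, libraries of the same number also had similar numbers of genes at 0. With a replicate block the falls in RBE numbered 4, with STX1A (adjusted p = 0.023), NEFL (0.05) and GAP43 (0.048) added, and no other count moved by over 1.5 times. The block also let STX1A pass as higher in SSP-25 (0.046) and SYP in HuH-28 (0.019), let RCOR1 and STX1A pass as differing between lines (0.026 each), and lost no call in the knockdown comparisons. Leaving out HuH-28 or RBE left 1 fall on average, with REST at -0.11 (adjusted p = 0.17) or -0.14 (0.18). In HuH-28 a pseudocount of 10 gave 9 rises and 2 falls, and no trend or a fit of the line alone gave 0 falls. RBE had 3 falls after quantile normalization or alone. SSP-25 had 2 falls after quantile normalization, without a trend or alone, and 0 after scaling to equal sums. Fitted alone, SSP-25 gave 16 rises against 12, RBE 12 against 13 and HuH-28 4 against 5. Between SSP-25 and RBE, 13 genes were called with a pseudocount of 10, against 25. With 1 library left out, the average gave 14 to 17 rises and 1 to 2 falls, HuH-28 4 to 7 and 0 to 1, RBE 9 to 14 and 1 to 3, and SSP-25 9 to 13 and 0 to 1. Differences between lines in the change numbered 5 to 9. Calls between control lines numbered 27 to 29 for SSP-25 minus HuH-28, 23 to 27 for RBE minus HuH-28 and 22 to 25 for SSP-25 minus RBE. REST lay between -0.21 and -0.12, and RCOR1 between -0.34 and -0.27. Of the single genes' alternatives, 350 kept their call and 32 lost it, in CHGB, SYT1, VAMP2, UNC13A, NEFM and GPRIN1. Causes were not tested. Depth is unknown, so small values carry no counting interval, and genes under a signal of about 1 cannot be read as changed or unchanged.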
